A study of Mus musculus with 8 samples.

Results

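The expression of 10 immediate early genes was followed in FURIN deficient and WT mouse peritoneal macrophages before and after stimulation with LPS. The genes were Egr1, Egr2 and Egr3, the AP-1 genes Fos, Fosb, Fosl1, Jun and Junb, and Atf3 and Ier3. They were chosen by name, as the genes whose array probes map to these symbols, and they are 10 of the 37018 genes and transcripts on the array. Of these proteins all but 1 are transcription factors, whereas IER3 is an immediate early gene product that does not bind DNA.

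Immediate early genes are transcribed within minutes of a stimulus without new protein synthesis, because the factors that switch them on, among them SRF with its ETS partners, CREB and NF-κB, are already present in the cell. In macrophages LPS reaches them through TLR4, the MAP kinases and NF-κB. Their products are mostly transcription factors, which then act on later genes, and many of their mRNAs are degraded quickly, so that the signal is brief.

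The KO macrophages came from LysMCre-fur(fl/fl) mice, in which Cre is driven from the lysozyme 2 locus and deletes the floxed Furin gene in myeloid cells, and the WT macrophages came from littermates, all on the C57BL/6 background. Peritoneal cells of both genotypes were cultured for 24 h, washed, given fresh medium with little serum for 1 h, and then harvested without stimulation or after 1, 4 or 24 h with LPS (1 μg/ml). Each of the 4 time points had 2 biological replicates of each genotype, hybridized as KO against WT on 8 Agilent 2-colour arrays, which gave 16 channels. The sources used here do not say whether animals were pooled for a replicate, and their ages were not given for these samples. KO RNA carried Cy5 in replicate 1 and Cy3 in replicate 2, so replicate and dye orientation cannot be told apart. The growth protocol in the labels names 4 h of stimulation for every sample, and the time points were taken from the sample titles. The number of arrays limits the precision, since each group has n = 2.

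Furin, the targeted gene, had log2 KO/WT ratios of -0.59 and -0.85 in unstimulated cells, -0.56 and -0.55 after 1 h and -0.59 and -0.69 after 24 h of LPS. After 4 h the ratios were 0.00 and 0.33, so that at this time the probe did not separate the genotypes in the direction of the labels. For the 4 h samples, and for comparisons that use them, KO and WT stand for the cells labelled KO and WT. Lyz2, whose locus drives Cre, had mean log2 ratios of -0.90, -0.98, -1.09 and -1.73 at 0, 1, 4 and 24 h, below 0 on every array, with an adjusted p of 0.105, 0.206, 0.0562 and 0.00631 in turn, or of at most 0.00538 with the replicate number as a block in the fit. Whether the Furin probe lies in the deleted part of the gene was not examined. All 10 macrophage markers tested, Csf1r and Cd14 among them, were well above background on every array. The 7 B cell markers and the 7 mast cell markers tested were also well above background in every group, whereas 3 or 4 of 7 neutrophil markers were not well above background on any array of a group. In such bulk samples fewer cells of a type and less RNA per cell cannot be told apart.

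Each of the 10 genes was measured by a single probe, the Fos probe on 10 spots, and values are given as normalized log2 intensities, which can be compared between samples for a gene but not between genes. A probe was read as detected where the scanner software called it well above background. The 9 other genes were detected in 16 of 16 channels. The Egr3 probe was detected in 1 channel, KO replicate 2 after 1 h of LPS. Its values elsewhere are upper limits, and they ranged from 6.04 to 6.68 in WT and from 6.12 to 6.56 in KO cells.

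Within 1 h of LPS, 9 of the 10 genes rose in WT macrophages and the same 9 rose in KO macrophages. Egr1 rose most in both genotypes, 21.0-fold in WT and 12.7-fold in KO cells, and Fos, Junb and Ier3 had the next largest changes, between 6.01-fold and 8.75-fold in both. The exception was Egr3, well above background in 1 of the 8 channels of unstimulated and 1 h cells. Its log2 change in KO was 0.39 (adjusted p = 0.127), or 2.29 with the processed signals of the scanner software (adjusted p = 0.0153). Since Egr3 was not well above background in unstimulated cells, neither value measures the size of a change. In WT cells 8.55% of all 36927 genes and transcripts tested passed an adjusted p of 0.05 at this time, 3.37% higher and 5.18% lower. In KO cells 7.54% passed, 3.08% higher and 4.46% lower. The median log2 change of the 10 genes was 2.17 in WT and 1.76 in KO cells, where the medians over all features tested were -0.02 and -0.02.

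EGR1 is a zinc finger factor that binds GC-rich sites in many growth and inflammation genes. Its values in WT cells were 9.61 and 9.72 unstimulated, 13.93 and 14.19 after 1 h, 10.76 and 10.64 after 4 h, and 10.33 and 9.94 after 24 h. In KO cells they were 10.69 and 10.52 unstimulated, 14.15 and 14.38 after 1 h, 11.20 and 10.91 after 4 h, and 10.12 and 10.22 after 24 h. The 1 h samples were far above all others in both genotypes, and no time points overlapped within a genotype. The lowest level was that of the unstimulated cells in WT but that of the 24 h cells in KO. The log2 change at 1 h was 4.40 in WT (SE 0.15, adjusted p = 5.37e-10) and 3.66 in KO (SE 0.15, adjusted p = 3.89e-09).

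EGR2, a relative of EGR1 with a function in myeloid differentiation, behaved differently after the first hour. In WT cells Egr2 was at 13.38 and 13.45 unstimulated, 15.11 and 14.73 after 1 h, 9.99 and 10.40 after 4 h, and 10.16 and 10.69 after 24 h. The KO values were 13.43 and 13.40 unstimulated, 14.47 and 14.70 after 1 h, 9.89 and 9.68 after 4 h, and 9.79 and 9.90 after 24 h. It was thus high before LPS, higher at 1 h, and lower at 4 and 24 h than in any unstimulated sample, while the 4 and 24 h samples overlapped with each other. At 1 h Egr2 had changed by a log2 of 1.51 in WT (SE 0.18, adjusted p = 0.000105) and 1.17 in KO (SE 0.18, adjusted p = 0.00113).

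Fos encodes c-FOS, which pairs with a JUN protein to form AP-1. In WT cells it was at 8.15 and 8.19 unstimulated, 11.51 and 11.10 after 1 h, 11.16 and 9.88 after 4 h, and 8.11 and 7.79 after 24 h. In KO cells it was at 8.56 and 8.70 unstimulated, 10.97 and 11.47 after 1 h, 11.46 and 11.04 after 4 h, and 7.88 and 8.09 after 24 h. The 1 and 4 h samples overlapped in both genotypes and lay above the unstimulated and 24 h samples. One of the WT samples at 4 h was lower than the other, by more than any other pair of replicates of these genes. The log2 change at 1 h was 3.13 in WT (SE 0.31, adjusted p = 1.63e-05) and 2.59 in KO (SE 0.31, adjusted p = 0.00012).

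Fosb and Fosl1 encode further FOS proteins, and FOSL1, also known as FRA-1, lacks a strong activation domain. Fosb was at 7.04 and 7.07 in unstimulated WT cells, 8.52 and 8.62 after 1 h, 6.99 and 7.01 after 4 h, and 6.95 and 6.86 after 24 h. Fosb in KO cells was at 7.41 and 7.36 unstimulated, 8.37 and 8.82 after 1 h, 6.93 and 6.94 after 4 h, and 7.05 and 6.83 after 24 h. The 1 h samples were the highest in both genotypes, with log2 changes of 1.51 in WT (SE 0.13, adjusted p = 3.22e-06) and 1.21 in KO (SE 0.13, adjusted p = 3.59e-05). The processed signals gave larger changes in WT, 2.16 for Fosb and 2.62 for Fosl1 at 1 h and 3.44 for Fosl1 at 24 h, where normexp background correction gave 1.51, 1.90 and 2.69.

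Fosl1 had its highest mean at 4 h in both genotypes. In WT cells it was at 7.0 and 7.01 unstimulated, 8.84 and 8.97 after 1 h, 9.75 and 9.72 after 4 h, and 9.49 and 9.90 after 24 h. The values in KO were 7.68 and 7.71 unstimulated, 9.22 and 9.50 after 1 h, 10.17 and 9.94 after 4 h, and 9.50 and 9.43 after 24 h. Every stimulated sample was above the unstimulated ones of its genotype. The 4 and 24 h samples overlapped in WT, and the 1 and 24 h samples overlapped in KO. After 1 h the log2 change was 1.90 in WT (SE 0.14, adjusted p = 6.49e-07) and 1.66 in KO (SE 0.14, adjusted p = 2.93e-06).

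**Figure D1:**
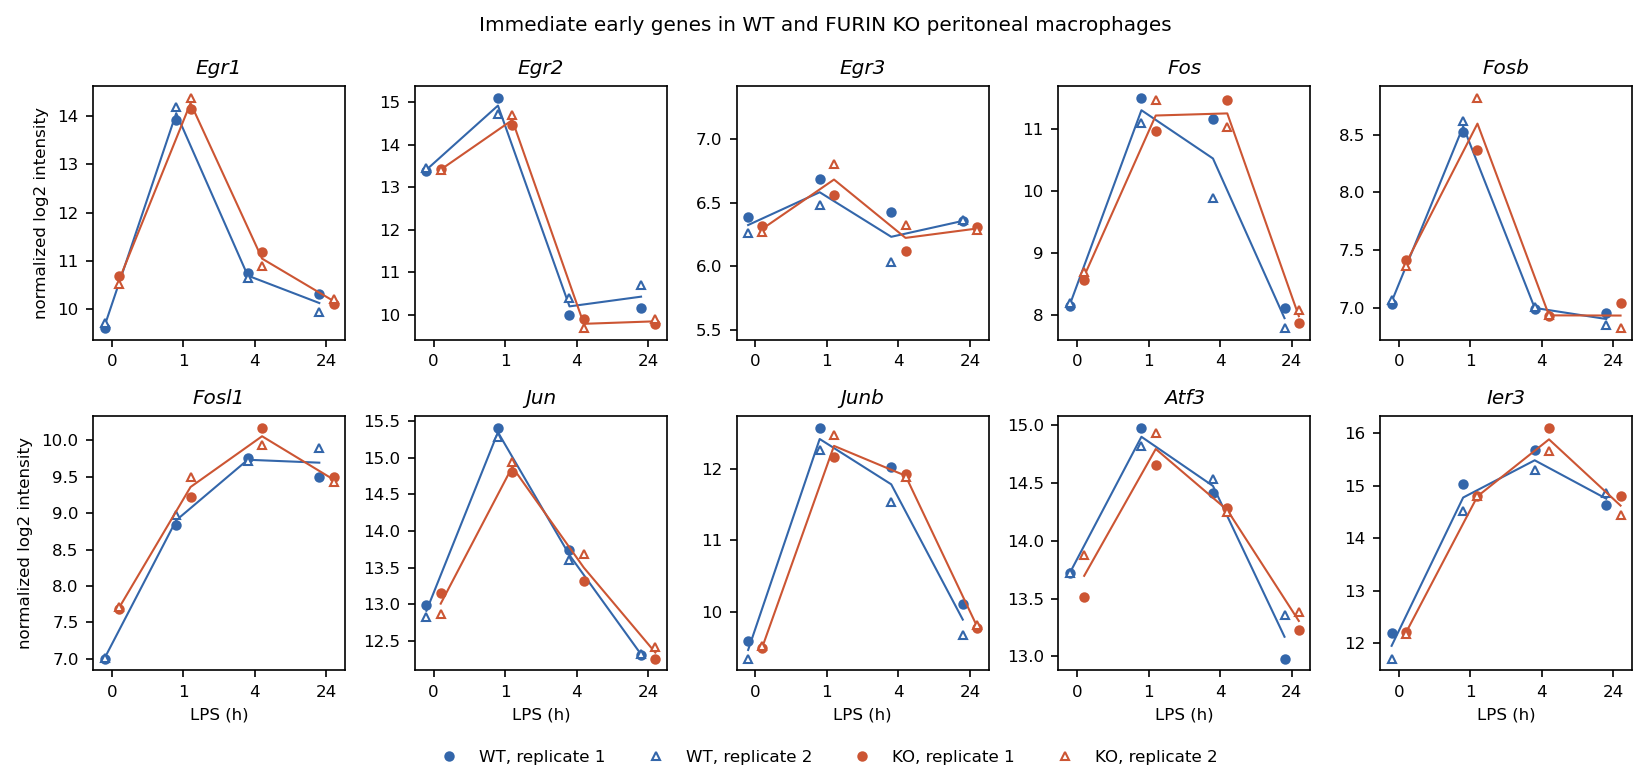
Normalized log2 intensity (vertical axis, its own range for each gene) of the 10 immediate early genes against hours of LPS (horizontal axis, time points evenly spaced). Filled circles are replicate 1, open triangles replicate 2, blue WT and red KO, and lines join the means of n = 2. Fosl1 and Ier3 have their highest means at 4 h in both genotypes and Fos in KO, where its 1 and 4 h samples overlap, the others have theirs at 1 h, and Egr2 ends below its unstimulated level.

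Jun and Junb encode partners of the FOS proteins, and JUN also activates its own gene. Jun was at 13.00 and 12.83 in unstimulated WT cells, 15.41 and 15.29 after 1 h, 13.74 and 13.61 after 4 h, and 12.31 and 12.33 after 24 h. In KO cells it was at 13.16 and 12.87 unstimulated, 14.81 and 14.94 after 1 h, 13.31 and 13.69 after 4 h, and 12.26 and 12.42 after 24 h. The order was the same in both genotypes, highest at 1 h, then 4 h, then unstimulated, and lowest at 24 h, with no overlap between time points. Its log2 change after 1 h was 2.44 in WT (SE 0.14, adjusted p = 6.52e-08) and 1.87 in KO (SE 0.14, adjusted p = 1.1e-06).

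Junb was at 9.59 and 9.35 in unstimulated WT cells, 12.57 and 12.26 after 1 h, 12.03 and 11.54 after 4 h, and 10.10 and 9.68 after 24 h. In KO cells it was at 9.50 and 9.52 unstimulated, 12.17 and 12.47 after 1 h, 11.92 and 11.88 after 4 h, and 9.77 and 9.82 after 24 h. Junb thus stayed high for longer than Jun, and its lowest samples were the unstimulated ones in both genotypes. After 1 h Junb had changed by a log2 of 2.95 in WT (SE 0.18, adjusted p = 1.36e-07) and 2.81 in KO (SE 0.18, adjusted p = 2.81e-07).

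ATF3 is a stress-induced factor of the ATF/CREB family that represses many LPS-induced cytokine genes. Atf3 was at 13.72 and 13.73 in unstimulated WT cells, 14.98 and 14.82 after 1 h, 14.42 and 14.53 after 4 h, and 12.98 and 13.36 after 24 h. In KO cells it was at 13.52 and 13.88 unstimulated, 14.66 and 14.93 after 1 h, 14.28 and 14.25 after 4 h, and 13.23 and 13.38 after 24 h. The 1 h samples were highest and the 24 h samples lowest in both genotypes. The log2 change at 1 h was 1.18 in WT (SE 0.15, adjusted p = 0.000132) and 1.10 in KO (SE 0.15, adjusted p = 0.000304).

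IER3, also known as IEX-1, acts in cell survival and in ERK and NF-κB signaling. Ier3 was at 12.19 and 11.71 in unstimulated WT cells, 15.03 and 14.52 after 1 h, 15.68 and 15.30 after 4 h, and 14.64 and 14.87 after 24 h. Ier3 in KO cells was at 12.22 and 12.19 unstimulated, 14.80 and 14.80 after 1 h, 16.10 and 15.67 after 4 h, and 14.80 and 14.45 after 24 h. Its highest samples were those at 4 h in both genotypes, and every stimulated sample was above the unstimulated ones. The log2 change at 1 h was 2.83 in WT (SE 0.21, adjusted p = 9.5e-07) and 2.60 in KO (SE 0.21, adjusted p = 2.72e-06).

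Since these genes rose together, their promoters were read for sites of the factors named above. RefSeq windows of the 250 bases before a transcription start (GRCm38.p6) were listed for 7 of the 10 genes, and Egr2 had 5 such windows. The motifs searched, on both strands, were the CArG box of SRF, the NF-κB site, the CRE TGACGTCA, the AP-1 site TGANTCA, the EGR site GCGNGGGCG, the TATA box TATAAA and the ETS core CCGGAA. Of the 32851 windows in the table, 1.47% hold the CArG box, 7.25% the NF-κB site, 1.55% the CRE, 6.75% the AP-1 site, 4.7% the EGR site, 12.4% the TATA box and 12.0% the ETS core. The 4 genes with a match are printed 5′ to 3′ with the matches in capitals, and for Egr2 the window with the most matches is shown.
Egr2, chr10:67537316-67537565, plus strand: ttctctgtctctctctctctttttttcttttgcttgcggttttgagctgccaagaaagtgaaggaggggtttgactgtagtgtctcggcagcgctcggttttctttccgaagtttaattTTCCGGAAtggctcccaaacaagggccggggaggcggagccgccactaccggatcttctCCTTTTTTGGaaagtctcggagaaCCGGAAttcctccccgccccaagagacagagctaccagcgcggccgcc
Fos, chr12:85473640-85473889, plus strand: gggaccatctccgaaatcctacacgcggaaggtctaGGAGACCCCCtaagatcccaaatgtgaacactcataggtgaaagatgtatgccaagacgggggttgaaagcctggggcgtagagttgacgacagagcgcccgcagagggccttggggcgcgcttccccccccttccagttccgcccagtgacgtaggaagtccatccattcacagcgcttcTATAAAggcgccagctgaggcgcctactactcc
Fosb, chr7:19310046-19310295, minus strand: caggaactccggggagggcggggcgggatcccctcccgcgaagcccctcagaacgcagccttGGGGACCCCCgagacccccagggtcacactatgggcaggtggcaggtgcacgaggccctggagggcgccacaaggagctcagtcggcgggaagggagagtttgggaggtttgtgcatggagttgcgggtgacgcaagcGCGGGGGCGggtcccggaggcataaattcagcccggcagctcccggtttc
Ier3, chr17:35821463-35821712, plus strand: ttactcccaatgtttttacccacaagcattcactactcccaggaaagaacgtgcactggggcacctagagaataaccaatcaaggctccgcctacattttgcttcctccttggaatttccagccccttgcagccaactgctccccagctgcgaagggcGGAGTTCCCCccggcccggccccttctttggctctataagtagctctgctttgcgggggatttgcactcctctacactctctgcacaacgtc
The Egr2 window holds a CArG box that ends 63 bases before the start, an ETS core that ends 43 bases before the start, and farther upstream a palindrome in which ETS cores of both strands overlap. The capitals in Fos are an NF-κB site and the TATA box, those in Fosb an NF-κB site and an EGR site, and those in Ier3 an NF-κB site. The Jun, Junb and Atf3 windows hold 0 matches to these letters. Of the other 4 Egr2 windows, which start elsewhere in the gene and partly overlap, 1 holds a pair of overlapping NF-κB matches. The other 3 hold a CArG box, the same in each, which lies outside the printed window. A match is a description of the sequence, and binding was not measured.

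After 4 h of LPS the 10 genes no longer moved as a group. In the cells labelled WT 7 were still above the unstimulated level and 1, Egr2, had fallen below it, where 34.8% of all features passed the test, 15.5% higher and 19.3% lower. In the cells labelled KO 7 were above and 2, Egr2 and Fosb, below, where 36% of all features passed, 16.3% higher and 19.7% lower. The median change of the 10 genes was 0.90 in the cells labelled WT and 0.53 in those labelled KO.

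Ier3 had the largest increase at 4 h, 11.6-fold in the cells labelled WT (log2 change 3.53, SE 0.21, adjusted p = 1.24e-08) and 12.8-fold in those labelled KO (3.68, SE 0.21, adjusted p = 8.49e-09). Fosl1 was 6.62-fold higher in the cells labelled WT and 5.14-fold higher in those labelled KO. Fos was 5.11-fold and 6.15-fold higher, and Junb 4.98-fold and 5.25-fold higher, in the cells labelled WT and KO respectively. The WT Fos change of 2.35 on the log2 scale was 1.71 without the 4 h array of replicate 1 and 2.99 without that of replicate 2. Atf3, Jun and Egr1 were 1.68-fold, 1.69-fold and 2.05-fold above the unstimulated level in the cells labelled WT. In those labelled KO the same 3 genes were between 1.36-fold and 1.48-fold above it. For Egr2 the log2 change was -3.22 in the cells labelled WT (SE 0.18, adjusted p = 8.86e-09) and -3.63 in those labelled KO (SE 0.18, adjusted p = 2.83e-09).

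The smaller changes in the cells labelled KO were the least firm of these calls. For Egr1 the log2 change of 0.45 (adjusted p = 0.0292) was 0.07 with loess normalization alone (adjusted p = 0.827) and 0.03 with the processed signals of the scanner software (adjusted p = 0.896), and without either unstimulated array or the 4 h array of replicate 1 it was 0.30 to 0.53 (adjusted p 0.0557 to 0.262). Jun, at 0.49 (adjusted p = 0.0115), was not past the threshold with the processed signals (adjusted p = 0.054) or without the 4 h or the unstimulated array of replicate 2 (adjusted p = 0.145 and 0.15), nor was Atf3, at 0.57 (adjusted p = 0.00682), without the unstimulated array of replicate 1 (adjusted p = 0.119). Fosb, at -0.45 (adjusted p = 0.0121), lost its call when any of the 4 arrays of unstimulated or 4 h cells was left out, with adjusted p between 0.0541 and 0.0831. With the processed signals it was -1.32 (adjusted p = 0.000192), and Fosb then also passed in the cells labelled WT, at -0.52 (adjusted p = 0.0475), where it had been -0.05 (adjusted p = 0.823).

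Between 1 and 4 h, 2 genes rose further and 6 fell in the cells of each label, where 29.6% of all features passed in those labelled WT (14% higher, 15.6% lower) and 31.8% in those labelled KO (15% higher, 16.8% lower). The genes that rose were Fosl1 and Ier3 in both. Fosl1 rose by 0.83 in WT (adjusted p = 0.000248) and 0.70 in KO (adjusted p = 0.00101), and Ier3 by 0.71 (adjusted p = 0.0189) and 1.08 (adjusted p = 0.000996). The genes that fell in both were Egr1, Egr2, Fosb, Jun and Atf3. The steepest declines of the group were those of Egr1, with log2 changes of -3.36 in WT and -3.22 in KO, and of Egr2, with -4.73 and -4.80. The Atf3 decline was small, at -0.43 in WT (adjusted p = 0.043) and -0.53 in KO (adjusted p = 0.0127). It was lost with the processed signals in both genotypes and without 1 array in several cases, for which the adjusted p was 0.061 to 0.209 in WT and 0.0555 to 0.141 in KO. With loess alone the Atf3 call in WT (-0.46, adjusted p = 0.0558) and the Fosl1 call in KO (0.36, adjusted p = 0.0872) were lost, and Junb in KO passed (-0.52, adjusted p = 0.0471). The Ier3 call in WT was lost without the 1 h array of replicate 2 or the 4 h array of replicate 1 (adjusted p = 0.244 and 0.149), and with the processed signals neither Fosl1 in either genotype nor Ier3 in WT passed (adjusted p 0.0978 to 0.219). Junb fell by 0.63 in WT (adjusted p = 0.0156, or 0.134 without the 1 h array of replicate 1 and 0.215 without the 4 h array of replicate 2) and had a change of -0.42 in KO (adjusted p = 0.104). Fos did not pass the test in either genotype, at -0.78 in WT (adjusted p = 0.0809) and 0.03 in KO (adjusted p = 0.962). The Fos change in WT was -1.42 without the 4 h array of replicate 1 (adjusted p = 0.000692), -0.14 without that of replicate 2 (adjusted p = 0.769) and -1.04 with loess alone (adjusted p = 0.015). Egr3 was lower at 4 h than at 1 h in the cells labelled KO (adjusted p = 0.0195), but it was detected on 1 of the 4 arrays compared, and the call was lost without that array (adjusted p = 0.171) or without the 4 h array of replicate 1 (adjusted p = 0.0764). In the cells labelled WT Egr3 was not well above background in any of the 4 channels compared, and no change is read from it.

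**Figure D2:**
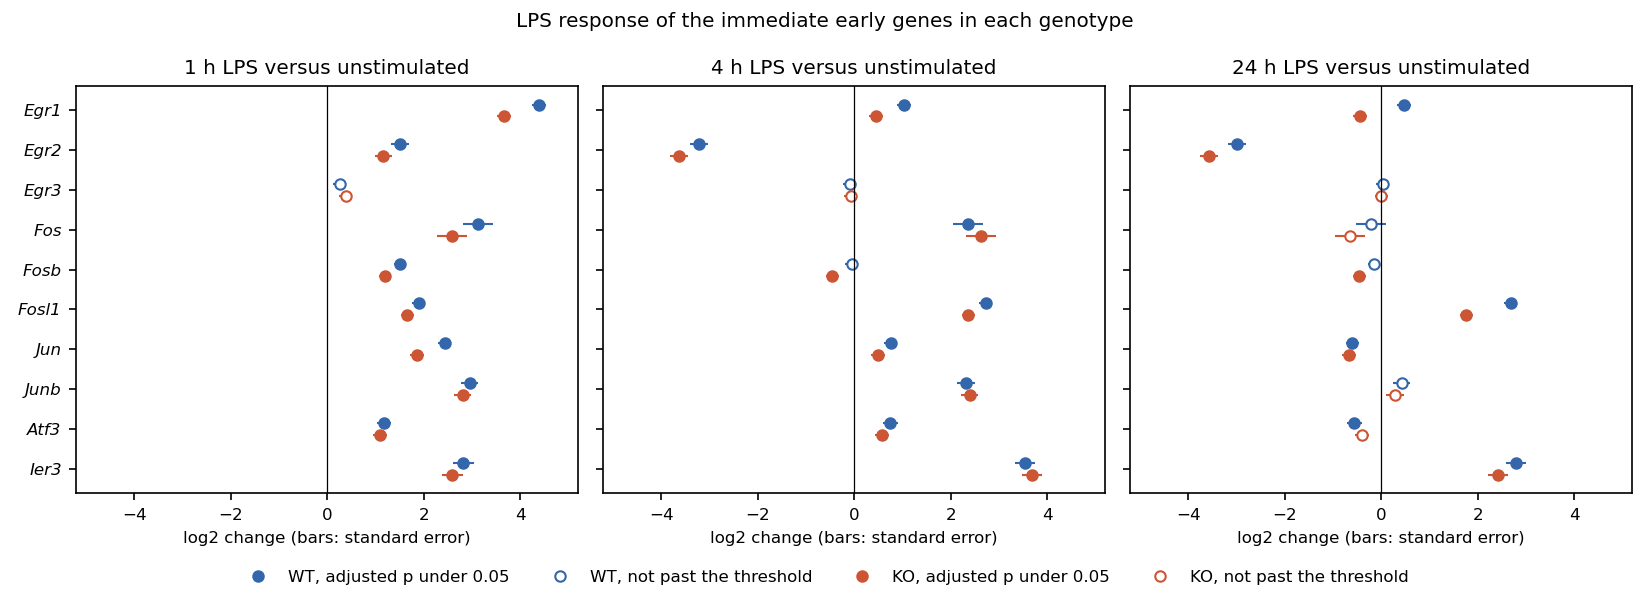
Log2 change against unstimulated cells of the same genotype (horizontal axis, bars are standard errors) for the 10 genes (vertical axis) after 1, 4 and 24 h of LPS. Blue is WT, red KO, and filled symbols have an adjusted p under 0.05. All 10 genes lie to the right of 0 at 1 h, whereas Egr2 lies far to the left at 4 and 24 h.

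At 24 h some of the genes were above and some below their unstimulated level. In WT cells 3 were higher, Egr1, Fosl1 and Ier3, and 3 lower, Egr2, Jun and Atf3, where 30.4% of all features passed, 13.5% higher and 16.9% lower. In KO cells 2 were higher, Fosl1 and Ier3, and 4 lower, Egr1, Egr2, Fosb and Jun, where 28.7% of all features passed, 12.8% higher and 15.9% lower. Fos and Junb passed in neither genotype. The Fos changes were -0.22 in WT and -0.65 in KO (adjusted p = 0.702 and 0.157, the latter 0.0223 without either 4 h array), with both samples of each genotype below its unstimulated ones, and the Junb changes were 0.42 and 0.28 (adjusted p = 0.101 and 0.311), with both samples of each above. Fosl1 remained 6.44-fold higher in WT (adjusted p = 4.09e-09) and 3.40-fold higher in KO (adjusted p = 2.53e-07). Ier3 remained 6.98-fold higher in WT (adjusted p = 1.87e-07) and 5.36-fold higher in KO (adjusted p = 8.39e-07). Egr2 had a log2 change of -2.99 in WT (adjusted p = 2.88e-08) and of -3.57 in KO (adjusted p = 5.91e-09).

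The smaller changes at 24 h depended on the setting. Egr1 was higher than in unstimulated cells in WT (0.47, SE 0.15, adjusted p = 0.0265) and lower in KO (-0.43, SE 0.15, adjusted p = 0.0426). The unstimulated KO samples had started at a higher level than the WT ones, while the 24 h samples of the genotypes overlapped. The call in WT was lost with the processed signals (0.38, adjusted p = 0.125) and without either unstimulated array or without the 24 h array of replicate 1 (0.27 to 0.52, adjusted p 0.0705 to 0.301). The call in KO was lost when any of the 4 arrays of unstimulated and 24 h cells was left out (-0.51 to -0.35, adjusted p 0.057 to 0.257), and with Aquantile scaling (adjusted p = 0.0524) or loess alone (adjusted p = 0.145). Jun fell by 0.59 in WT (adjusted p = 0.00407) and by 0.67 in KO (adjusted p = 0.00185), and with loess alone the values were -0.28 (adjusted p = 0.199) and -0.33 (adjusted p = 0.122). With the processed signals these Jun calls were lost too (adjusted p = 0.123 and 0.0751). Atf3 fell by 0.55 in WT (adjusted p = 0.00995), which was -0.17 with loess alone (adjusted p = 0.6), -0.39 with the processed signals (adjusted p = 0.197) and -0.36 without the 24 h array of replicate 1 (adjusted p = 0.155). In KO its change was -0.39 (adjusted p = 0.0649), and it passed with the replicate number as a block (adjusted p = 0.0408), with the filter on well above background (adjusted p = 0.0449) and without the unstimulated array of replicate 1 (-0.57, adjusted p = 0.0319). It was -0.21 without the unstimulated array of replicate 2 (adjusted p = 0.48), -0.23 with the processed signals (adjusted p = 0.402) and -0.01 with loess alone (adjusted p = 0.988). Fosb fell by 0.45 in KO (adjusted p = 0.0148), with adjusted p of 0.0628 to 0.166 without either unstimulated array or without the 24 h array of replicate 2. With the processed signals the Fosb change was -1.29 in KO (adjusted p = 0.000383) and -0.82 in WT (adjusted p = 0.00613), where it had been -0.15 (adjusted p = 0.471).

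Markers of macrophages and of other cells moved over the same hours. Among all features 13.5% were higher and 16.9% lower after 24 h in WT, and 12.8% and 15.9% in KO. After 4 h the shares were 15.5% and 19.3% in the cells labelled WT, and 16.3% and 19.7% in those labelled KO. Of the 10 macrophage markers 7 were lower and 2 higher after 24 h in WT, and 7 lower and 1 higher in KO. Their summed level, on the log2 scale, was 19.08 to 19.34 unstimulated and 17.99 to 18.08 after 24 h in WT, and 18.85 to 18.87 and 17.38 to 17.54 in KO. The sum of the 7 neutrophil markers was 12.17 to 12.22 and 14.54 to 15.90 in WT, and 11.88 to 12.15 and 15.24 to 16.01 in KO, with 2 of 7 higher and 1, Elane, lower in each genotype. The higher ones were S100a8, with a log2 change of 3.77 in WT and 4.49 in KO, and Camp, while S100a9, Mpo and Ngp were not well above background on any array. Of the 7 mast cell markers 5 were lower after 24 h in each genotype, and 1, the histamine enzyme gene Hdc, was higher, with 5.11 in WT and 4.95 in KO at 4 h and 3.70 and 3.34 at 24 h, while the summed level after 24 h was 13.64 to 13.73 in WT and 14.00 to 14.14 in KO. Of the 7 B cell markers 3 were lower and 2 higher after 4 h in the cells labelled WT, and 5 and 2 in those labelled KO. Of the 9 T and NK cell markers 3 were lower and 1 higher after 24 h in WT, and 4 and 1 in KO. Of the 9 fibroblast and mesothelial markers 2 were higher after 24 h in WT and 3 in KO, with 0 lower, and their sum was 10.04 to 10.08 unstimulated and 11.24 to 11.38 after 24 h in WT. The part of these shifts in the changes of the immediate early genes was not tested.

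Whether the loss of FURIN changed these genes was asked on each array, as the ratio of KO to WT. None of the 10 genes passed at a single time point, where 0% of the 36947 features tested passed in unstimulated cells, 0% at 1 h, 0.00812% at 4 h and 0.0244% at 24 h (0.0135% higher and 0.0108% lower) by limma. Without adjustment 3, 2, 4 and 1 of the 10 genes had a p below 0.05 at 0, 1, 4 and 24 h, where 5.75%, 5.46%, 4.31% and 3.42% of all features had such a p. The methods' t-test counted 4, 1, 1 and 0 of the 10 genes below this unadjusted threshold, beside 4.62%, 4.75%, 3.07% and 4.1% of all features by that test, and 0 after Benjamini-Hochberg adjustment at every time. Averaged over the 4 time points Egr1 was higher in KO cells, the only one of the 10 genes to pass, where 0.563% of all features passed, 0.241% higher and 0.322% lower. A block for the replicate number raised the counts of the 10 genes to 2 in unstimulated cells, 1 at 4 h and 4 in the mean, with 0 at 1 and 24 h, where 1.06%, 0.568%, 6.01%, 0.577% and 0.585% of all features passed.

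Egr1 had a KO/WT ratio of 0.94 on the log2 scale in unstimulated cells, above that of Fosl1 at 0.69, an order that turned with the processed signals (1.01 and 1.25). Its log2 ratios were 1.07 and 0.81 on the unstimulated arrays, 0.22 and 0.19 after 1 h, 0.44 and 0.26 after 4 h, and -0.21 and 0.29 after 24 h. It was higher in KO on 7 of 8 arrays. The unstimulated KO samples lay above the WT samples with no overlap, a 1.92-fold difference (log2 ratio 0.94, SE 0.13, adjusted p = 0.11). The ratio at 1 h was 0.21, when both genotypes were near their peak. The mean over the time points was 0.39, or 1.31-fold (SE 0.07, adjusted p = 0.048). This call is narrow. It was lost when any array except the 24 h array of replicate 1 was left out (0.32 to 0.42, adjusted p 0.09 to 0.194), and with 6 other settings (0.38 to 0.40, adjusted p 0.0568 to 0.328). With the replicate number as a block the ratio passed in unstimulated cells (adjusted p = 0.00648) and in the mean (adjusted p = 0.00462).

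Fosl1 was the other gene with a higher level in KO on 7 of 8 arrays. Its log2 ratios were 0.68 and 0.70 unstimulated, 0.38 and 0.53 after 1 h, 0.42 and 0.23 after 4 h, and 0.00 and -0.47 after 24 h. The genotypes did not overlap before LPS, at 1 h or at 4 h, and overlapped at 24 h. The unstimulated ratio was 0.69 (1.61-fold, SE 0.12, adjusted p = 0.183) and the mean over the time points 0.31 (SE 0.06, adjusted p = 0.0745). With the block the adjusted p-values were 0.0167 and 0.00775, and with the processed signals the ratios were 1.25 and 0.51 (adjusted p = 0.589 and 0.326).

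Fos was higher in KO on 6 of 8 arrays, with log2 ratios of 0.41 and 0.50 unstimulated, -0.54 and 0.37 after 1 h, 0.30 and 1.15 after 4 h, and -0.24 and 0.30 after 24 h. Between the cells labelled KO and WT at 4 h the ratio was 0.73 (SE 0.25, adjusted p = 0.96, or 0.0361 with the block). It rests largely on the low WT sample of replicate 2, and the ratio of the other array was 0.30. The mean over the time points was 0.28 (SE 0.12, adjusted p = 0.465, or 0.0268 with the block). Fosb had ratios of 0.37 and 0.29 before LPS, with KO above WT in all unstimulated samples, and between -0.15 and 0.20 afterwards. Its unstimulated ratio was 0.33 (SE 0.11, adjusted p = 0.559), or 0.63 with the processed signals (adjusted p = 0.805).

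Egr2 went the other way and was lower in KO on 7 of 8 arrays. Its log2 ratios were 0.05 and -0.05 unstimulated, -0.64 and -0.04 after 1 h, -0.11 and -0.72 after 4 h, and -0.36 and -0.80 after 24 h. The genotypes overlapped before LPS and did not overlap at any time after it. The mean over the time points was -0.33 (SE 0.09, adjusted p = 0.191, or 0.0379 with the block). Jun had ratios of -0.60 and -0.34 after 1 h (log2 ratio -0.47, SE 0.13, adjusted p = 0.68), with all KO samples below the WT samples, and ratios between -0.43 and 0.16 at the other times. Junb and Atf3 were each higher in KO on 4 of 8 arrays, with mean ratios of -0.01 and -0.05. Ier3 was higher on 6 of 8 arrays, with a mean ratio of 0.14 (SE 0.09, adjusted p = 0.693). Egr3 was not well above background in either genotype at any time but 1 h, and its ratios, counted below for completeness, are those of a probe near background.

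The genotypes did not overlap for 4 of the 10 genes in unstimulated cells, 3 after 1 h, 5 after 4 h and 2 after 24 h (Egr2 and Egr3, which was not well above background there), beside 30.6%, 31.3%, 24.4% and 28.2% of all features. The counts at 0, 1 and 24 h are near those shares. The genes were Egr1, Fos, Fosb and Fosl1 in unstimulated cells, each higher in KO, and at 4 h Egr1 and Fosl1, higher in the cells labelled KO, and Egr2, Fosb and Atf3, lower in them. The unstimulated macrophage marker sum was 18.85 to 18.87 in KO and 19.08 to 19.34 in WT cells, without overlap, and without Lyz2 18.36 to 18.39 and 18.38 to 18.50, which overlapped. The median unstimulated KO/WT ratio of the 10 macrophage markers was 0.09 on the log2 scale, with 6 above 0 and 4 below, and in the mean over the time points 1 of the 10 macrophage markers was higher and 2 were lower in KO, Lyz2 among them (6 passed with the block). The unstimulated mast cell marker sum was 13.46 to 13.98 in KO and 13.11 to 13.59 in WT cells, the B cell marker sum was 16.18 to 16.71 and 16.02 to 16.39, and the T and NK cell marker sum 13.57 to 13.65 and 13.14 to 13.75. The median log2 KO/WT ratio in unstimulated cells was 0.42 for the 7 mast cell markers, of which 0 passed the test, against 0.17 for the 10 immediate early genes and 0.00 for all features. In the mean over the time points it was 0.48, with 7 of 7 mast cell markers above 0, and 0 passed without and 6 with the block. Among all features 0.563% passed in this mean without and 6.01% with the block. The part of these marker differences in the immediate early genes was not tested.

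**Figure D3:**
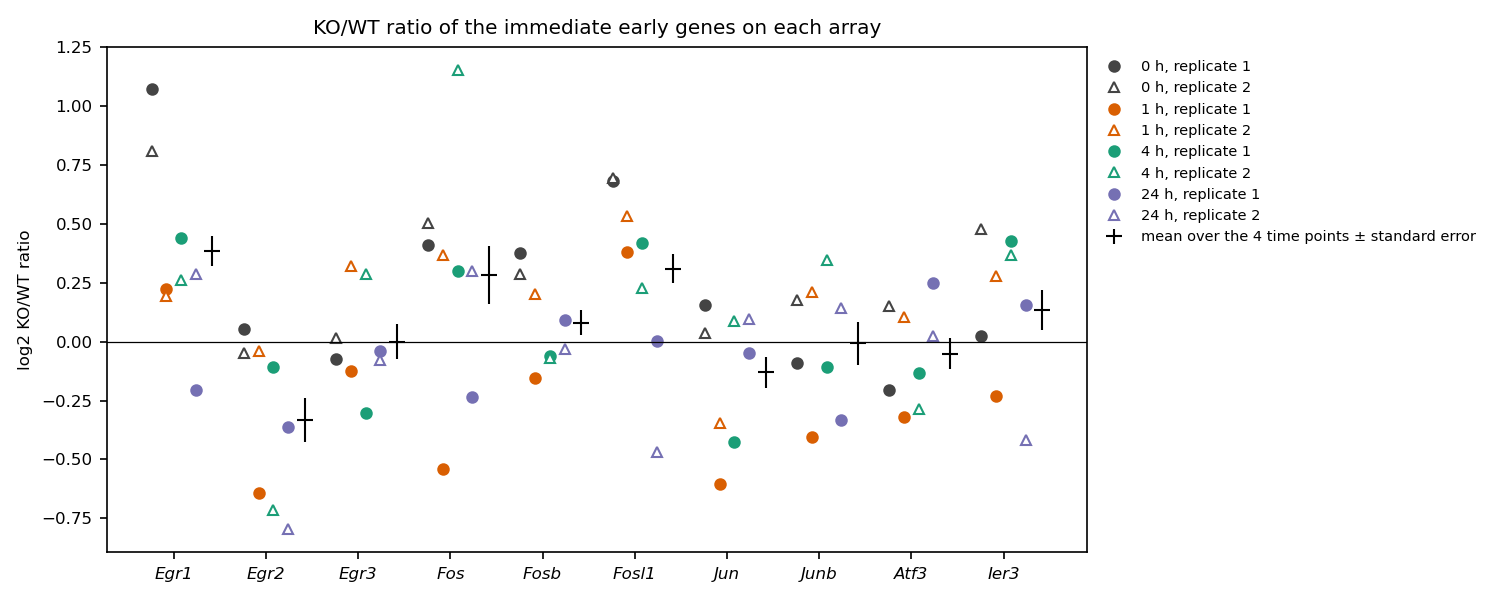
Log2 KO/WT ratio (vertical axis) of each gene (horizontal axis) on each of the 8 arrays, with colours for the time point, filled circles for replicate 1 and open triangles for replicate 2. Black crosses are the mean over the 4 time points with its standard error. Egr1 and Fosl1 lie above 0 on 7 of 8 arrays and Egr2 below 0 on 7 of 8.

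The response to LPS was also compared between the genotypes, as the change of the ratio from unstimulated cells. None of the 10 genes passed at 1, 4 or 24 h, where 0% of all features passed in each of these comparisons, and 2 of the 10 genes had an unadjusted p under 0.05 at each time, against 1.4%, 2.9% and 3.33% of all features. With the block 0, 0 and 1 of the 10 genes passed, where 0%, 0.0352% and 0.211% of all features did. The change was smaller or more negative in KO for 9 of 10 genes at 1 h, 6 at 4 h and 9 at 24 h, with medians of -0.27, -0.23 and -0.34, where 51.1%, 50.2% and 49.6% of all features were below 0 and their medians were 0.00, 0.00 and 0.00. Of 27 other immediate early genes 22, 16 and 18 were below 0, and of 15 described targets of AP-1, EGR1 or ATF3 13, 10 and 13. The AP-1, ATF and EGR relatives had 14, 13 and 12 of 21 below 0. For the MAP kinase and SRF pathway genes it was 17, 12 and 16 of 26, and for the heat shock genes 8, 7 and 7 of 9. The comparisons at 1, 4 and 24 h share the unstimulated arrays, and the counts and medians of the 10 genes include Egr3. For Egr1 the differences after 1, 4 and 24 h were -0.73, -0.59 and -0.90 (SE 0.18 each, adjusted p from 0.571 to 1). For Fosl1 it was -0.92 at 24 h (SE 0.17, adjusted p = 0.48, or 0.0445 with the block). For Jun it was -0.57 at 1 h (SE 0.19, adjusted p = 1).

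The genes that encode relatives of these factors and the rest of the immediate early response were described by lists chosen for this purpose. Their counts stand beside the shares over all features, of which 3.37% were higher and 5.18% lower after 1 h in WT, 3.08% and 4.46% after 1 h in KO, 15.5% and 19.3% after 4 h in WT, and 13.5% and 16.9% after 24 h in WT. Of 21 relatives in the AP-1, ATF and EGR families, 7 rose and 1 fell after 1 h in WT cells, with a median log2 change of 0.28, and 6 rose and 3 fell in KO cells. Maff, which encodes a small MAF protein, rose most, by 4.64 in WT (SE 0.20, adjusted p = 4.48e-09) and 4.15 in KO. Fosl2, the gene of FRA-2, rose by 2.07 in WT (SE 0.24, adjusted p = 7.1e-05), and Jund by 1.27 (SE 0.10, adjusted p = 2.73e-06). Egr4, not well above background in unstimulated WT cells, was at least 6.36-fold higher after 1 h (adjusted p = 1.79e-07). At 4 h 11 relatives were higher and 3 lower in WT, among them Batf2 at 3.81 and Batf at 3.24, both partners of JUN proteins.

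Of 27 other immediate early genes, 20 rose and 2 fell after 1 h in WT cells (median 1.91), and 19 rose and 2 fell in KO cells (median 1.88). The largest increases in WT were those of Ptgs2, the gene of cyclooxygenase 2, at 6.88 (SE 0.26, adjusted p = 1.28e-09), the chemokine genes Cxcl1 at 6.85 and Cxcl2 at 6.04, and Tnf at 6.81. After 24 h 8 were higher and 6 lower in WT. Of 26 genes of the MAP kinase and SRF pathway, which act upstream, 4 rose and 2 fell after 1 h in WT, with a median of -0.04. Map3k8, the kinase TPL2 that couples TLR4 to ERK, rose by 1.31 (SE 0.19, adjusted p = 0.000398) and Mapkapk2, a kinase downstream of p38, by 1.10 (adjusted p = 0.00109). Mrtfa, an SRF cofactor, fell by 0.60 (adjusted p = 0.00447).

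Of 15 genes described as targets of AP-1, EGR1 or ATF3, 7 rose and 1 fell after 1 h in WT (median 0.71), and 6 rose and 2 fell in KO (median 0.37). Il6 rose by 9.19 (SE 0.28, adjusted p = 2.46e-10), the chemokine gene Ccl4 by 6.21 (SE 0.14, adjusted p = 3.5e-11) and F3, the gene of tissue factor, by 4.95 (SE 0.45, adjusted p = 7.24e-06). Ch25h, cholesterol 25-hydroxylase, was not well above background in unstimulated WT cells and was at least 7.86-fold higher after 1 h and at least 385-fold higher after 24 h (adjusted p = 0.000364 and 3.63e-09).

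Between the genotypes 0 genes of these 4 lists passed at any single time point, where 0% to 0.0244% of all features did. In the mean over the time points 1 relative, 1 other immediate early gene, 0 pathway genes and 1 target passed, of 21, 27, 26 and 15 tested, where 0.563% of all features did. These 3 were Crem, a CREB family gene, at 0.40 (SE 0.07, adjusted p = 0.0452), Rgs1, a regulator of chemokine receptor signaling, at 0.48 (SE 0.06, adjusted p = 0.0233), and Ccnd1, the cyclin D1 gene, at 0.76 (SE 0.08, adjusted p = 0.0121), each higher in KO. With the block 4, 7, 4 and 5 passed in the mean, where 6.01% of all features did, and 1, 3, 0 and 5 in unstimulated cells, where 1.06% did. The median log2 ratios of the 4 lists in the mean were 0.10, 0.10, 0.01 and 0.12, against 0.04 for the 10 immediate early genes.

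**Figure D4:**
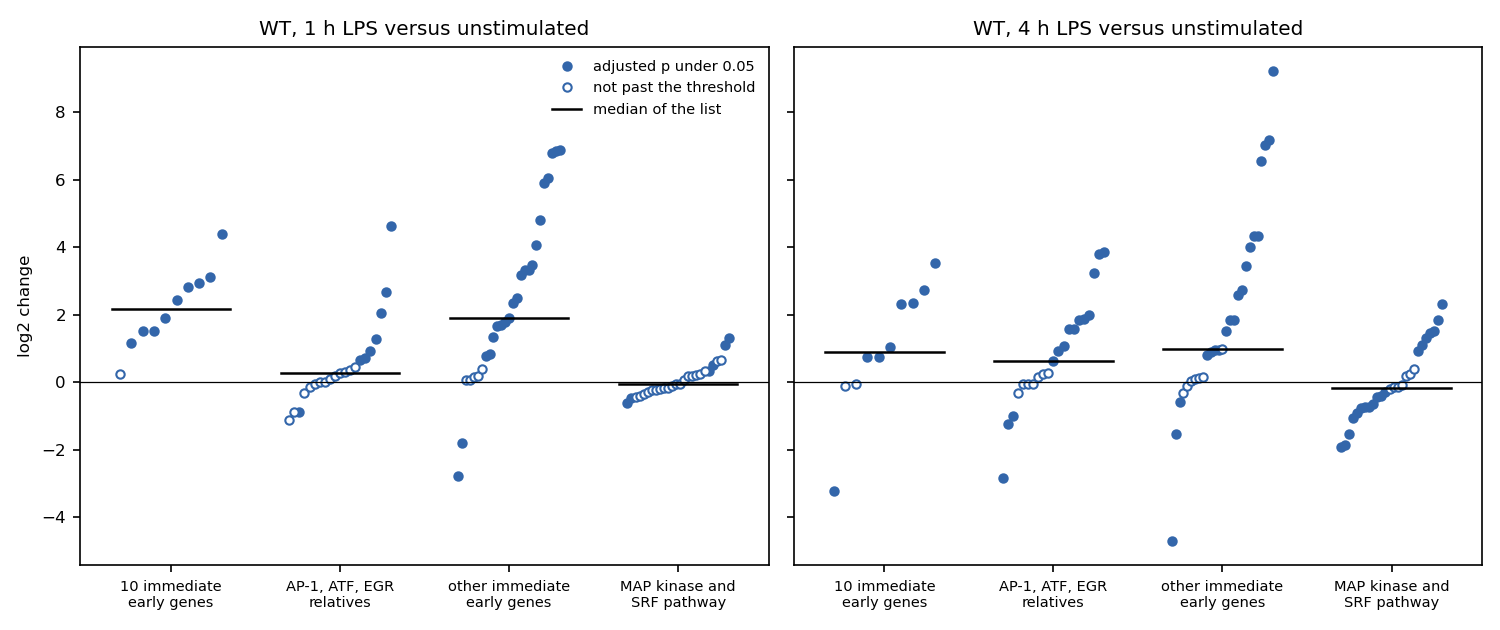
Log2 change (vertical axis) in WT macrophages after 1 h (left) and 4 h (right) of LPS for each gene of 4 lists (horizontal axis), sorted within a list. Filled points have an adjusted p under 0.05, and black lines are the medians. At 1 h the 10 immediate early genes have a median of 2.17 and the 26 pathway genes one of -0.04.

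The course of each gene over the 16 channels was then compared with that of the other 20839 named genes. These correlations describe time courses, since the 16 channels fall into 4 time points, share 8 arrays and differ mostly by time. Egr1 was most like Egr4 (Pearson r = 0.981), Gadd45a (0.976) and Pmaip1 (0.971), and Fosb was also most like Egr4 (0.968), followed by Extl2 and Rcan1. Jun was most like Gtf2b (0.980), Ptger4 and Gadd45a, Junb like Cdc42ep2 (0.991), Ier2 (0.988) and Ppp1r10, and Fos like Tmem88 (0.985), Dyrk2 and Id3. The slower genes had other neighbours. Fosl1 was most like Ptgs2 (0.984), Csf2 (0.978) and Ifi211, and Ier3 like Il1a (0.988), Pvr and Itga5. Egr2 was most like Tfe3 (0.987), Prr14 and Plekho2, and Atf3 like Zfp263 (0.978), Rbm7 and Nfkbid. Egr3, hardly detected, had Mtr (0.899), Klhl15 and Paf1 as its nearest genes. Within the group the lowest correlations were those of Egr2 with Fosl1 (-0.57) and with Ier3 (-0.47).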

How the data were processed

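Total RNA of both genotypes was amplified, labelled and hybridized on Agilent 2-colour arrays of 62976 spots. The authors deposited the scanner output of Agilent Feature Extraction 10.7.3 (per the submitters' processing notes), holding raw intensities for Cy3 and Cy5 at every spot and the software's processed signals, and a matrix of normalized log2 ratios of Cy5 to Cy3. Correlation of the deposited log2 ratios with the ratios computed here from the intensities (Pearson's r 0.987 to 0.996 per array, slopes 0.927 to 1.04, medians 0.003 to 0.009) settled its scale, direction and centring.

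Median pixel intensities were background corrected with normexp (offset 50), loess normalized within arrays (control and outlier spots at weight 0) and quantile normalized between arrays in limma 3.58.1 (R 4.3.3). Per array, 43.8 to 51.3% of gene spots were well above background, and 0 were saturated. Replicate spots were averaged per probe, and a gene with several probes was represented by its brightest one. Of 55681 gene probes 27509 could be named through RefSeq accessions. Features below a mean log2 intensity of 6, the limit named in the study, were left out. Under the normalization used here this kept 36947 of 37018 for the ratios, of which 21253 were well above background in at least 4 of 16 channels. The shares over all features thus include many probes near background. For KO against WT, lmFit was run on the log2 ratios of the 8 arrays with a coefficient for each of the 4 time points (4 residual degrees of freedom), followed by eBayes. LPS effects were fitted on the 16 channels with lmscFit (statmod 1.5.0, intraspot correlation 0.0927, estimated on 5000 genes). Benjamini-Hochberg adjustment covered all features tested, 36947 for ratios and 36927 for channels, with a threshold of 0.05. The p-values measure only the spread between these samples. A feature not well above background on any array of a group has only a bound, the mean of the brighter group against the higher, on each array, of its own value and the lowest signal well above background, after Aquantile normalization.

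Replicate numbers recur at each time point. The deviations of same-numbered arrays in the KO/WT ratio correlated across genes with r of 0.475 to 0.679 over the 6 pairs of time points. The numbers are also the dye orientation, so these correlations cannot tell a pairing of the arrays from a dye effect. The block was added to the fits as an alternative. Scripts were tested on simulated data. The array annotation and the RefSeq tables use different genome builds, so no gene positions are given, and promoter positions are those of GRCm38.p6.

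The 10 genes and the lists were chosen with earlier results of these data known. Named are the 10 genes, Furin and Lyz2, from each list up to 4 genes with the largest change among those past the threshold, and for each of the 10 genes the 3 most correlated. Named marker genes are examples of their lists. A gene that this rule would name is not reported here. Il12b, Hspa1b, Cd68, Ighm and Ly6g were not tested, since no named probe passed the steps above. Alternatives were the processed signals, loess alone, Aquantile, 2 other filters, the mean of all probes, the block, an intraspot correlation of 0, the deposited matrix, the methods' t-test and each array left out in turn.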

Additional observations from a re-analysis of the deposited data

How the results depend on the processing

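The 9 increases at 1 h in WT and KO cells kept their direction and call under every alternative run. With each array left out in turn the number of the 10 genes past the threshold was 9 to 9 at 1 h in both genotypes, 8 to 8 (WT) and 6 to 9 (KO) at 4 h, 4 to 6 and 4 to 7 at 24 h, and 6 to 8 and 6 to 8 for 4 h against 1 h. No gene reversed a called direction under any alternative. Across genes, comparisons and alternatives 2469 values were counted as unchanged. These kept their side of the threshold, and either kept direction or, without a call, moved by less than their standard error. A further 66 values lost and 21 gained a call. The last 28 had no call, changed sign and moved by at least their standard error. For KO against WT in the mean over the time points, where 1 gene passed, the count was 0 with the processed signals, loess alone, Aquantile, the filter on well above background, the mean of all probes and the deposited matrix, and 0 to 1 with each array left out. With the replicate number as a block it was 4, and the block gave 2 in unstimulated cells, 1 at 4 h, and 1 for the difference in response at 24 h, where the counts without it were 0. The cause was not tested. In the fits of KO/WT ratios the block is also a dye term. In the fits of LPS effects both dyes of an array share its value, so there it is a term for the replicate number only. It changed 1 call for LPS, that of Atf3 in KO cells at 24 h. Over all features 208 passed in the mean over the time points, but 2219 with the block, 137 with the filter on well above background, 129 with the mean of all probes, 0 with the processed signals and 1 to 161 with an array left out. At 0, 1, 4 and 24 h 0, 0, 3 and 9 passed, and with the block 393, 213, 210 and 216, while at 1 h of LPS 3158 passed in WT and 2785 in KO, and 1812 to 3314 and 1455 to 2881 with an array left out (2785 became 1849 with the processed signals). The processed signals moved the median over all features by up to -0.35 on the log2 scale (KO at 24 h) and loess alone by up to -0.16 (KO, 4 h against 1 h). Of all features called at 4 h in WT, 44.6% were higher, but 26.2% with the processed signals and 27.8% with loess alone, and in KO 45.2%, 26.5% and 27.9%. For 4 h against 1 h these shares were 47.2%, 29.3% and 27.2% in WT and 47.2%, 29.4% and 27.2% in KO. The Egr3 probe was well above background in 1 of 16 channels, which limits what its values show.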

Other observations

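Heat shock genes, whose products are chaperones and which, like immediate early genes, answer quickly to stress, moved over the same hours. Of 9 tested, 5 rose after 1 h in WT cells and 4 in KO cells, with 0 lower, and 9 rose in the cells labelled WT and 8 in those labelled KO after 4 h, with 0 lower. Of all features 3.37% and 3.08% were higher at 1 h, and 15.5% and 16.3% at 4 h. Hspa1a, an inducible HSP70 gene, rose by 2.96 after 1 h in WT (SE 0.13, adjusted p = 4.81e-09) and by 2.85 in KO (adjusted p = 1.02e-08), and was still 1.30 above the unstimulated level at 4 h in WT. Its channels were at 8.35 and 8.24 unstimulated, 11.35 and 11.16 after 1 h, 9.67 and 9.51 after 4 h, and 8.33 and 8.55 after 24 h in WT. It was thus highest at 1 h. Hsp90aa1 and Hsph1 were slower, with 1.78 and 1.68 at 4 h in WT (adjusted p = 3.47e-08 and 4.63e-07). Between the genotypes 0 of the 9 passed at any time or in the mean over the time points, by limma or with the replicate number as a block, and their median log2 KO/WT ratio in the mean was 0.02.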
